A study of Homo sapiens with 36 samples.

Results

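RNA signal in MEC-1 cells given RP11-161H23.5 gapmer 1 was compared with that in MEC-1 cells given a scrambled gapmer, on 3 arrays against 3. The 6 arrays were chosen by their sample titles and are part of a series of 36 arrays in 12 groups. MEC-1, a human B-cell line established from a chronic lymphocytic leukaemia, is the source of all samples, with no genetic change named in the labels. Per the labels, cells were given 1 µM of each gapmer for 4 days, and uptake was by gymnosis, that is, without a transfection reagent. The RP11-161H23.5 experiment held 4 groups of 3 arrays, which received scrambled gapmer, gapmer 1, gapmer 2, or gapmer 1+2 (both together, so possibly a higher total amount of oligonucleotide). Parallel experiments on CYTOR and LINC00158 each had their own scrambled arrays. The labels do not say whether the arrays of a group came from separate cultures, so the p-values measure the spread between these arrays only. No untreated arrays were used here.

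A gapmer is a short antisense oligonucleotide with modified ends and a DNA centre, and RNase H cuts the RNA strand of the duplex it forms with its target. Scrambled gapmers serve as controls for effects of the oligonucleotide itself, and a pair of gapmers against separate sites of 1 RNA helps to separate effects of target loss from effects of a single sequence. RP11-161H23.5 is a clone-based name of a long non-coding RNA. None of the tables used here pairs an array unit with this name, so the level of the target itself, and of genes beside it, was not analysed here. The calls below therefore have no check on the target RNA.

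Signals are log2 values for 135750 array units (probe groups for a transcript or a part of it), and a change is the log2 difference of gapmer 1 minus scrambled, where 1 equals 2-fold. Of these, 67896 units had a mean over the 12 arrays of the experiment at or above the median, 3.96, and were tested with limma. A unit was called, and is said to have risen or fallen, at a Benjamini-Hochberg adjusted p under 0.05. Array medians were 4.01 to 4.04 with scrambled gapmer and 3.95 to 4.02 with gapmer 1. Bright units differed more: over 1906 units with a mean of at least 12, the array median was 14.47 ± 0.10 with scrambled gapmer and 14.16 ± 0.17 with gapmer 1 (SD, n = 3). Results are therefore given as deposited, and a named gene whose call was lost after quantile normalization is marked as such.

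The labelled cell type was borne out by the B-cell markers named on the array. CD79A and CD79B, the signalling chains of the B-cell receptor, read 11.44 to 12.23 and 10.38 to 11.05 over the 6 arrays. MS4A1 (CD20) read 8.69 to 9.70, and the B-cell transcription factor PAX5 read 8.21 to 8.88. None of the 6 measured B-cell markers was called, and fewer cells of a type cannot be told apart from less RNA per cell. Markers of other cells were mostly dim, with CD3D, CD14, LYZ, HBB and PF4 all between 2.80 and 3.98, while CD3E (6.88 to 7.96), NKG7 (5.65 to 7.09) and COL1A1 (8.40 to 8.99) were not.

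Gapmer 1 went with a broad difference in both directions. Of the 67896 units tested, 9028 were called (13.3%), of which 4204 were higher (6.19%) and 4824 lower (7.10%). The median absolute change of a called unit was 1.00, with a median SE of 0.26 over units, and 4477 called units differed by at least 2-fold. Among 12255 protein-coding genes, taking the brightest unit of each, 1148 were called (9.37%), 471 higher (3.84%) and 677 lower (5.52%). After quantile normalization 1152 of them were called (9.40%), 626 higher (5.11%) and 526 lower (4.29%). Over 21148 named genes of any class, 2417 were called (11.4%), 1073 higher (5.07%) and 1344 lower (6.36%), and after quantile normalization 2439 (11.5%), 1364 higher (6.45%) and 1075 lower (5.08%). The 3 gapmer 1 arrays did not overlap the 3 scrambled arrays for 34.2% of units, 32.9% of named genes and 30.2% of protein-coding genes. Among the 9028 called units the groups did not overlap for 8984, so a lack of overlap adds little to a call.

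The protein-coding genes described first were picked for the greatest changes among called genes whose scrambled and gapmer 1 arrays did not overlap, so their separation is a product of that choice. The greatest rise was that of MYEOV, a gene on chromosome 11 named for its overexpression in multiple myeloma. It read 6.19, 5.76 and 6.55 on the scrambled arrays and 9.94, 9.85 and 10.38 on the gapmer 1 arrays. The lowest gapmer 1 array was thus more than 3 log2 units above the highest scrambled array. The change was 3.89 (SE 0.27), a 14.8-fold difference in signal, with an adjusted p of 3.5e-05. SOX10, a transcription factor of neural crest cells and not a B-cell gene in textbook terms, came next. Its signal was 5.32, 4.53 and 5.02 with scrambled gapmer and 7.74, 8.66 and 7.82 with gapmer 1, a change of 3.12 (SE 0.26, adjusted p = 0.000115). Scrambled SOX10 was dim, near the lower part of the tested range.

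Other genes of low scrambled signal rose too. STYXL2, a phosphatase-like protein, went from 3.78, 4.19 and 4.12 to 6.54, 6.80 and 6.64, a change of 2.63 (SE 0.19, adjusted p = 4.64e-05). GOLGA8J, of the golgin family with many near-identical copies, changed by 2.48, and KANTR by 2.23. CEP170B, a centrosomal and microtubule-associated protein, changed by 2.02 and EFHD1, a mitochondrial calcium-binding protein, by 1.96. For these 4 genes the scrambled means were between 3.80 and 4.71 and the adjusted p at most 0.000988, and the scrambled mean of KANTR, 3.80, was below the filter that its treated arrays took it past. ANO1, the calcium-activated chloride channel encoded near MYEOV, read 5.43, 5.58 and 5.91 with scrambled gapmer and 7.44, 7.57 and 7.37 with gapmer 1. Its change was 1.82 (SE 0.21, adjusted p = 0.000638).

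A few genes that were already bright also rose. XRCC6 encodes Ku70, the DNA end-binding protein of non-homologous end joining. Its signal was 12.09, 11.46 and 11.60 with scrambled gapmer against 13.49, 13.43 and 13.49 with gapmer 1, a change of 1.75 (SE 0.26, adjusted p = 0.00226). FABP5, a fatty acid-binding protein, read 14.08, 14.29 and 13.86 against 15.52, 15.92 and 15.71, a change of 1.64 (SE 0.20, adjusted p = 0.000817). The spread of XRCC6 was wider on the scrambled than on the gapmer 1 arrays. RWDD4 changed by 2.04, and TYSND1, the protease that processes peroxisomal proteins, by 2.05. TYSND1 was the exception among these 12 genes: against the CYTOR and LINC00158 scrambled arrays its change was 0.80 and 0.52, with adjusted p of 0.0668 and 0.221.

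The greatest fall of a protein-coding gene was that of PCBP1, an RNA-binding protein that recognises C-rich sequences in messenger RNA. All 3 scrambled arrays read 15.25, and the gapmer 1 arrays read 13.07, 13.07 and 13.19. The change was -2.14 (SE 0.15, adjusted p = 3.5e-05). Repeated values of this kind are taken up below. AATK, a kinase named for its association with apoptosis, fell from 6.69, 6.82 and 6.97 to 4.73, 4.69 and 4.98, a change of -2.03 (SE 0.18, adjusted p = 0.00018). The arrays of the groups were more than 1 log2 unit apart for both genes.

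CHRAC1, a histone-fold subunit of a chromatin accessibility complex, read 9.04, 9.65 and 9.84 with scrambled gapmer and 7.78, 7.95 and 6.84 with gapmer 1. Its change was -1.99 (SE 0.42, adjusted p = 0.0125), and the third gapmer 1 array was the lowest. MED17, a subunit of the Mediator complex that links transcription factors to RNA polymerase II, changed by -1.65 (SE 0.20, adjusted p = 0.000773). ASCC1, of the activating signal cointegrator complex, changed by -1.82, and RBM47, an RNA-binding protein, by -1.80.

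TMBIM6, the membrane protein known as Bax inhibitor 1, read 13.65, 13.56 and 13.96 against 12.53, 11.99 and 11.82, a change of -1.61 (SE 0.24, adjusted p = 0.00268). ATG16L1, required for the lipid attachment step of autophagy, read 9.05, 8.57 and 8.38 against 7.03, 7.07 and 6.91, a change of -1.66 (SE 0.31, adjusted p = 0.00714). PCCA, a subunit of propionyl-CoA carboxylase, changed by -1.75, and EBPL, a relative of the sterol isomerase EBP, by -1.78. PTTG2, a securin family member close in sequence to PTTG1, changed by -1.77, but without scrambled replicate 1 its adjusted p was 0.0531. TMEM19, with a change of -1.64, lost its call without scrambled replicate 1, gapmer 1 replicate 2 or gapmer 1 replicate 3, with an adjusted p of up to 0.0916.

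These 24 genes were all called after quantile normalization as well, which was part of the rule that chose them. Leaving out each of the 6 arrays in turn kept the call of 22. For all 24 the 3 gapmer 1 arrays lay outside the range of all 9 scrambled arrays of the series, as they did for 16.0% of all protein-coding genes tested. The rule had already used 3 of those 9 arrays, so nothing is read from that difference. Array probes can bind near-identical copies and processed pseudogenes, so the values of GOLGA8J, PTTG2, FABP5 and PCBP1 may include signal from related sequences.

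**Figure D1:**
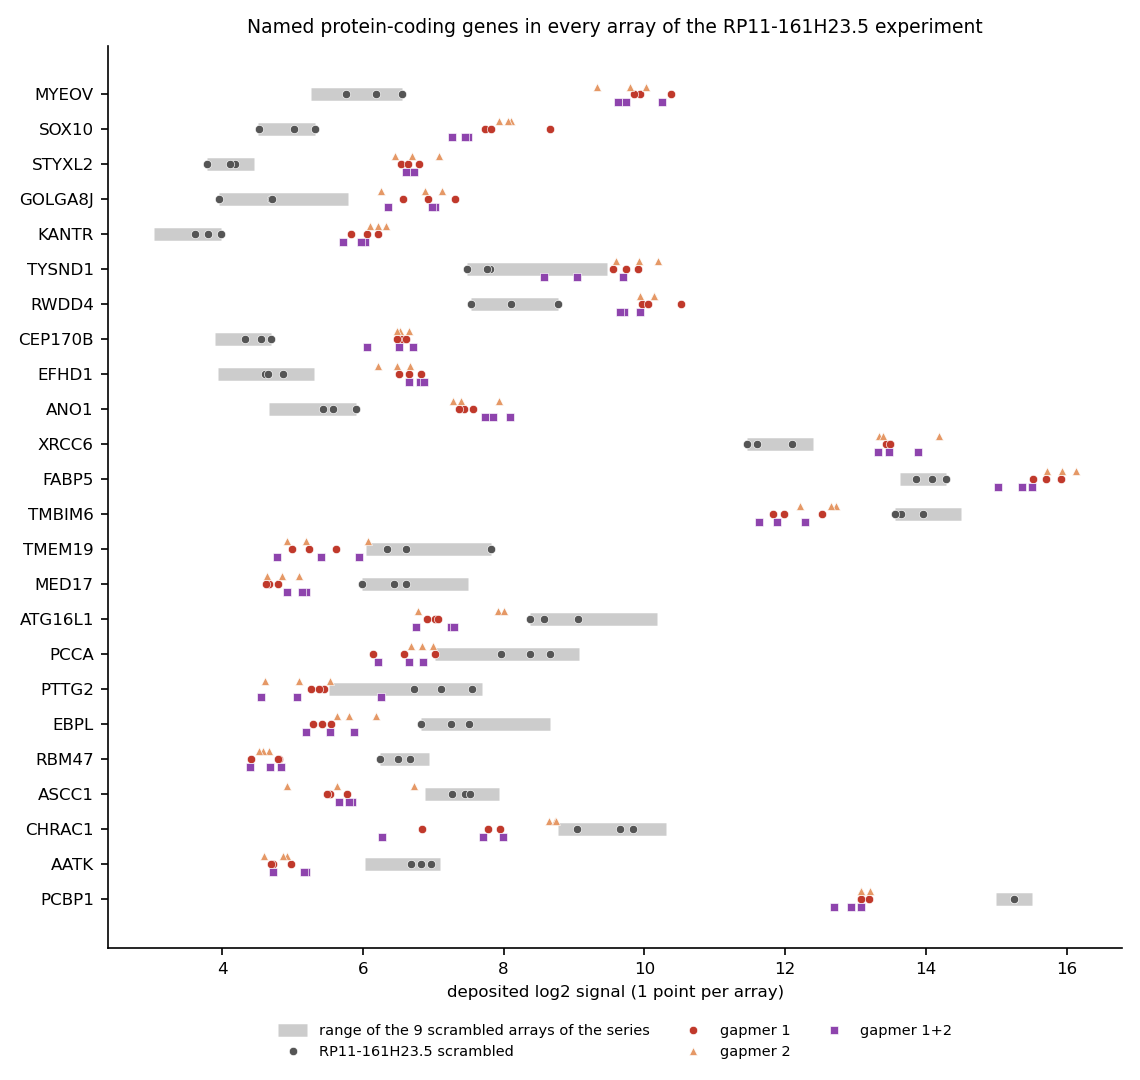
Deposited log2 signal (horizontal axis) of the 24 named protein-coding genes, with 1 point per array for the scrambled, gapmer 1, gapmer 2 and gapmer 1+2 groups (3 arrays each) and a grey bar from the lowest to the highest of the 9 scrambled arrays of the series. Every gapmer 1 point lies outside the grey bar of its gene, as for MYEOV, where the bar ends at 6.55 and the lowest gapmer 1 array is at 9.85, and the 3 scrambled points of PCBP1 fall on each other at 15.25.

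The arrays given the other gapmer were used to ask how far these differences were particular to gapmer 1. Between gapmer 1 and gapmer 2, limma called 0 of 67896 units, with 4331 units (6.38%) at an unadjusted p under 0.05 and a lowest adjusted p of 0.473. Between gapmer 1 and gapmer 1+2 it also called 0, with 4814 units (7.09%) at an unadjusted p under 0.05 and a lowest adjusted p of 0.202. These comparisons did not use the scrambled arrays. Over the 9028 units called against scrambled gapmer, the median absolute difference between gapmer 1 and gapmer 2 was 0.19. Only 85 of those units differed by 1 or more between the gapmers, and 75 did between gapmer 1 and gapmer 1+2.

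For single genes the intervals show what such a test could have missed. MYEOV averaged 9.72 with gapmer 2 and 9.87 with gapmer 1+2, and gapmer 1 exceeded gapmer 2 by 0.34 (95% interval -0.25 to 0.92). For PCBP1 the difference between the gapmers was -0.01 (-0.33 to 0.32), and for SOX10 it was 0.04 (-0.53 to 0.61). CHRAC1 was the widest case among the 24 genes, at 7.52 with gapmer 1 against 8.71 with gapmer 2. That difference was -1.18 (-2.11 to -0.26), with an adjusted p of 0.78 over all units, so it did not pass. ATG16L1 followed with -0.57 (-1.25 to 0.11).

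The same genes can be followed in the other experiments, whose gapmers were aimed at other RNAs. MYEOV averaged 9.49, 9.77 and 10.16 in the LINC00158 gapmer 1, gapmer 2 and gapmer 1+2 groups, and 5.05, 4.97 and 4.98 in the corresponding CYTOR groups. PCBP1 averaged 12.44, 12.22 and 12.23 in the LINC00158 groups and 15.78, 15.83 and 15.62 in the CYTOR groups. For MYEOV and PCBP1 the LINC00158 groups lay on the side of RP11-161H23.5 gapmer 1, and the CYTOR groups on the side of the scrambled arrays. SOX10 at 7.70, 8.15 and 7.95, and XRCC6 at 13.52, 13.34 and 13.74, were likewise high in the LINC00158 groups.

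Direct contrasts between the gapmer 1 groups put sizes on this. RP11-161H23.5 gapmer 1 minus LINC00158 gapmer 1 was 0.56 for MYEOV (adjusted p = 0.174), 0.37 for SOX10 (adjusted p = 0.319) and -0.05 for XRCC6 (adjusted p = 0.933). PCBP1 differed between these groups, by 0.67 (adjusted p = 0.00189), as did other genes. ATG16L1 was lower by 2.27 on the log2 scale with RP11-161H23.5 gapmer 1 (-2.27, adjusted p = 1.46e-05), RBM47 differed by -1.69 (adjusted p = 4.83e-06), and FABP5 by 1.33 (adjusted p = 0.00212). Over all units, 10634 (15.7%) were called between RP11-161H23.5 gapmer 1 and LINC00158 gapmer 1, and 26812 (39.5%) between RP11-161H23.5 gapmer 1 and CYTOR gapmer 1. The experiments are separate sets of arrays, so target and experiment cannot be told apart in these contrasts.

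**Figure D2:**
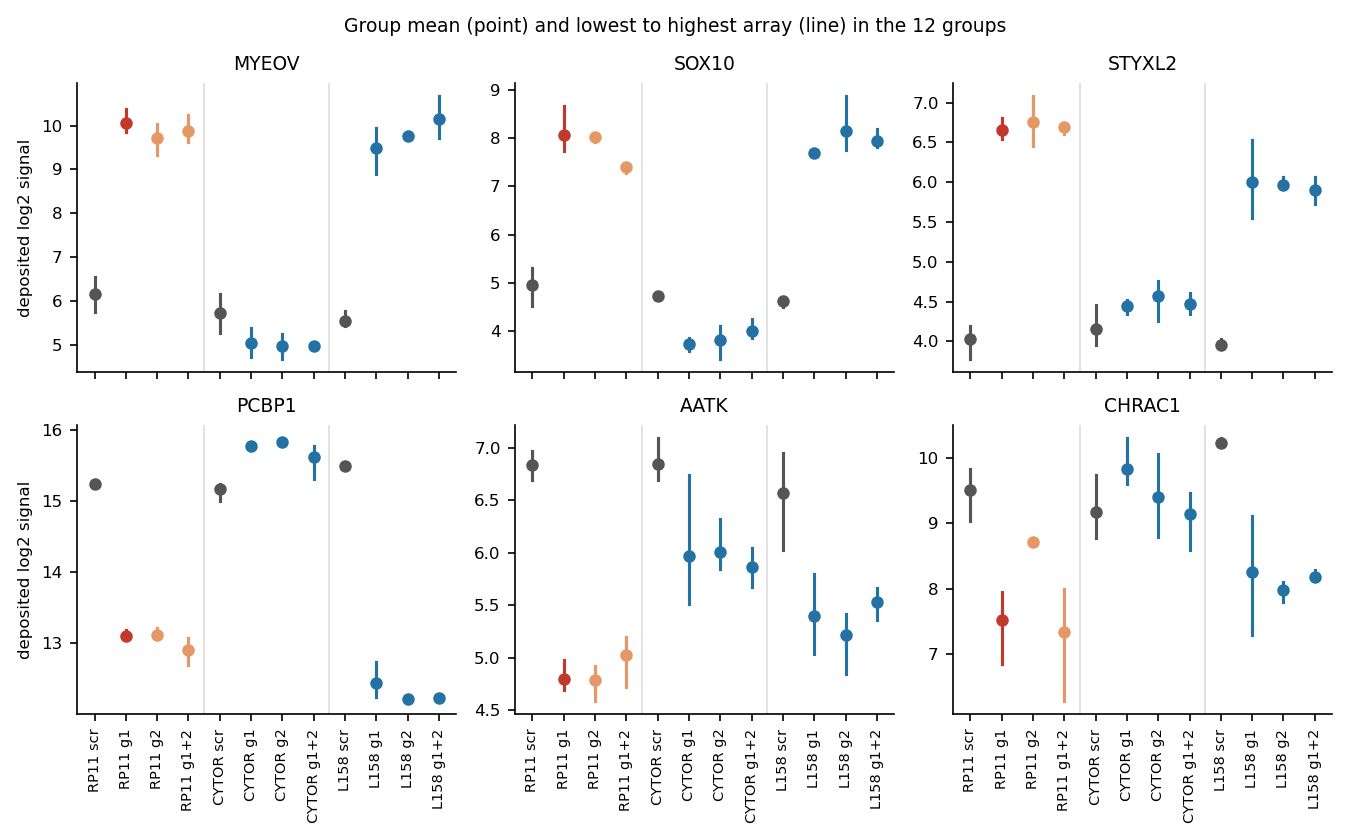
Deposited log2 signal (vertical axes, which do not start at 0) of the 3 named protein-coding genes that rose most and the 3 that fell most, in all 12 groups, with the mean of 3 arrays as a point and the lowest to highest array as a line. Groups are abbreviated as RP11 (RP11-161H23.5), L158 (LINC00158), scr (scrambled) and g (gapmer), and MYEOV averages 10.06 with RP11-161H23.5 gapmer 1, 9.49 with LINC00158 gapmer 1 and 5.05 with CYTOR gapmer 1.

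Gene lists for pathways of B cells and of oligonucleotide responses were read against the same background. Over 515 genes in the lists, 64 were called (12.4%, against 9.37% of all protein-coding genes), 18 higher and 46 lower. After quantile normalization 56 were called, 28 higher and 28 lower. Of all protein-coding genes, 471 were higher and 677 lower as deposited, and 626 higher and 526 lower after quantile normalization. The median change was -0.08 over all protein-coding genes, and -0.01 after quantile normalization. Of the 64 called members, 21 kept the call whichever of the 6 arrays was left out. Among the 60 called members chosen for naming, 39 had the same call against both the CYTOR and the LINC00158 scrambled arrays. That held for 23 of the 24 protein-coding genes described first. The remaining list calls thus depended on which scrambled arrays were used.

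Apoptosis regulators of opposite known action were among the called genes. In the BCL2 family and caspases, 5 of 23 genes fell and 1 rose (26.1% called, against 9.37% of protein-coding genes), with a median change of -0.35, and after quantile normalization 2 fell and 1 rose, with a median of -0.14. CFLAR, the inhibitor of caspase 8 activation known as FLIP, read 14.21, 13.11 and 13.60 with scrambled gapmer and 12.43, 12.15 and 12.23 with gapmer 1. The change was -1.37 (SE 0.26, adjusted p = 0.00833). MCL1, a short-lived survival protein of B cells named here after its values were seen, went from 8.25 ± 0.12 to 7.44 ± 0.09 (SD, n = 3), a change of -0.81 (adjusted p = 0.0111). Both kept their calls after quantile normalization and without any single array.

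BCL2 itself, the survival protein that is typically high in chronic lymphocytic leukaemia, changed the other way. It read 5.26, 4.76 and 5.08 against 6.12, 5.85 and 5.64, a change of 0.84 (SE 0.24, adjusted p = 0.042). The call was lost in all 6 fits that left out 1 array, with an adjusted p of up to 0.126. Against the LINC00158 scrambled arrays the change was -0.04. The caspase inhibitor XIAP (-0.92, adjusted p = 0.0323) and the pro-apoptotic BAD (-0.91, adjusted p = 0.0487) fell, losing the call after quantile normalization and in 6 and 5 of those 6 fits.

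In antigen presentation, single genes fell within lists that mostly did not pass. For MHC class II, 4 of 16 genes fell and 1 rose (31.2% called, against 9.37% of protein-coding genes), with a median change of -0.25, against 3 and 1 with a median of -0.08 after quantile normalization. HLA-DRB5, a beta chain of the class II molecule HLA-DR, read 11.27, 10.91 and 11.14 against 9.57, 9.74 and 9.57, a change of -1.48 (SE 0.23, adjusted p = 0.00302). HLA-DMB, of the HLA-DM complex that loads peptide, read 14.59, 13.36 and 14.15 against 12.86, 12.53 and 12.81, a change of -1.30 (SE 0.28, adjusted p = 0.0125). As for nearly all called units, neither gene overlapped between groups. Both kept their calls after quantile normalization and in each of the 6 fits that left out 1 array. HLA-DRB5 was also called against the CYTOR and the LINC00158 scrambled arrays. HLA-DMB was not, at -0.67 (adjusted p = 0.204) and -0.51 (adjusted p = 0.321). HLA-DRA and CD74, the invariant chain, did not pass, at -0.44 (adjusted p = 0.299) and 0.09 (adjusted p = 0.905). Neither did HLA-DRB1, the other HLA-DR beta chain in the list, at -0.25 (adjusted p = 0.533), and probes may not separate the HLA-DR beta chains.

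Of 4 measured regulators of class II, 1 fell, 1 rose and the others did not pass. RFXAP and RFXANK are partner subunits of the RFX complex that binds class II promoters. RFXAP fell by 0.83 on the log2 scale (adjusted p = 0.0394), and RFXANK rose by 0.82 (adjusted p = 0.0215), with calls lost in 6 and 4 of the 6 fits that left out 1 array. The master regulator CIITA was at -0.56 (adjusted p = 0.257) and RFX5, the third RFX subunit, at -0.58 (adjusted p = 0.0733). RFXANK was -0.27 against the CYTOR and the LINC00158 scrambled arrays. For MHC class I, 3 of 16 genes fell (18.8% called, against 9.37% of protein-coding genes) with a median change of -0.36, and 2 after quantile normalization. They were HLA-E (-1.04, adjusted p = 0.0153), the peptide-loading factor TAPBP (-0.91, adjusted p = 0.0375) and HLA-C (-0.60, adjusted p = 0.0488), and each lost the call when single arrays were left out. HLA-C was the one not called after quantile normalization (adjusted p = 0.141).

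Interferon-response genes and nucleic acid sensors, which respond to foreign RNA and DNA, contained no gene that rose in the deposited values. Of 30 interferon-response genes, 4 fell (13.3% called, against 9.37% of protein-coding genes), with a median change of -0.38. After quantile normalization 2 fell, with a median of -0.26. ISG15, a ubiquitin-like protein induced by interferon, read 12.86, 12.38 and 12.13 against 11.22, 11.24 and 11.15, a change of -1.25 (SE 0.27, adjusted p = 0.0141). Without scrambled replicate 1 its adjusted p was 0.0507. DDX60 changed by -1.19, the membrane protein IFITM1 by -1.14 and the antiviral GTPase MX1 by -0.79, with adjusted p of 0.0404, 0.0367 and 0.0468. Those calls were lost in 4 or 5 of the 6 fits with an array left out, and those of IFITM1 and MX1 also after quantile normalization.

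Among 16 nucleic acid sensing genes, 2 fell (12.5% called, against 9.37% of protein-coding genes), and after quantile normalization 2 fell and 1 rose. The gene that rose, named after its values were seen, was MAVS, the mitochondrial adaptor of RNA sensors, at 0.86 (adjusted p = 0.066) as deposited and 1.05 (adjusted p = 0.0302) after quantile normalization. AIM2, a sensor of cytosolic DNA, read 10.87, 10.10 and 10.46 against 9.19, 9.02 and 9.51, a change of -1.24 (SE 0.27, adjusted p = 0.0144). EIF2AK2, the RNA-activated kinase PKR, changed by -0.98 (SE 0.22, adjusted p = 0.0161). AIM2 and EIF2AK2 kept their calls after quantile normalization. Each lost it in 2 of the 6 fits, with adjusted p of 0.0518 and 0.058 at most.

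B-cell genes mostly did not pass. Of 22 B-cell identity genes, 2 fell (9.09% called, against 9.37% of protein-coding genes). They were the surface protein CD24 at -1.14 (adjusted p = 0.00837) and the lymph-node homing receptor CCR7 at -0.97 (adjusted p = 0.0195). CD24 read 5.38, 5.29 and 5.59 against 4.35, 4.43 and 4.05, with a call that held in each fit. CCR7 read 12.89, 12.18 and 12.49 against 11.33, 11.66 and 11.66 and did not pass after quantile normalization, at -0.70 (adjusted p = 0.0576). Of 12 genes of plasma cell differentiation 16.7% were called. PRDM1, the regulator that drives this differentiation, and CD27, a memory B-cell receptor, fell by 1.13 and 1.07 on the log2 scale. Their adjusted p were 0.0302 and 0.0175, and calls were lost in 5 and 2 of the 6 fits.

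In B-cell receptor signalling, 15% of 20 genes were called, against 9.37% of protein-coding genes. The kinase LYN fell (-0.78, adjusted p = 0.0261) and the kinase BTK rose (0.65, adjusted p = 0.0255). CR2, the complement receptor that assists the B-cell receptor, read 19.21, 19.57 and 19.14 against 18.66 on all 3 gapmer 1 arrays. Its change was -0.65 (adjusted p = 0.0311), close to the array's ceiling of 19.93, and it was not called after quantile normalization (adjusted p = 0.0688). Each of these 3 calls was lost in 5 of the 6 fits. Of 22 activation and NF-kB genes only RELA was called (4.55%), at -0.65 (adjusted p = 0.0452). It was not called after quantile normalization or in any of the 6 fits.

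Few cell-cycle genes were called. Of 29 genes of DNA replication and the G1/S transition, 1 was called (3.45%, against 9.37% of protein-coding genes). The median change was 0.17, or 0.33 after quantile normalization. The called gene was MCM4, a subunit of the replicative helicase, which read 6.77, 7.41 and 7.03 against 8.65, 8.48 and 8.71. Its change was 1.54 (SE 0.24, adjusted p = 0.00321). None of 24 mitosis genes was called, with a median change of -0.19. The nearest were the kinetochore protein CENPF, at -1.01 (adjusted p = 0.0578), and the mitotic cyclin CCNB1, at -1.15 (adjusted p = 0.0607).

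Replication-dependent histones had the highest median change of all lists tested, at 0.27, or 0.38 after quantile normalization. Of 22 genes 3 rose and 2 fell (22.7% called, against 9.37% of protein-coding genes). After quantile normalization 6 rose and 2 fell. H4C8 read 13.24, 13.53 and 13.73 against 15.16, 14.73 and 14.72 (change 1.37, SE 0.20, adjusted p = 0.0025), and H2BC3 changed by 1.41 (adjusted p = 0.00331). H2BC7 went from 10.77, 11.43 and 10.85 to 9.61, 9.98 and 9.70 (change -1.25, SE 0.20, adjusted p = 0.00332), and H2AC6 changed by -0.84 (adjusted p = 0.0122). Called genes of this family thus differed in opposite directions. Histone genes are close in sequence, and probes may not separate them.

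Stress and growth lists each held few calls. Of 23 integrated stress response genes, 4 fell and none rose (17.4% called, against 9.37% of protein-coding genes), and 1 fell after quantile normalization. CEBPB, a transcription factor, fell from 4.97 ± 0.03 to 4.15 ± 0.25 (SD, n = 3; change -0.82, SE 0.17, adjusted p = 0.0117) and kept its call in every fit. ATF4, which drives this response, was at 0.16 (adjusted p = 0.574), and its target DDIT3 at -0.38 (adjusted p = 0.444). The serine-pathway enzyme PSAT1 (-1.23), the tryptophan tRNA ligase WARS1 (-0.92) and SHMT2 (-0.84) were called as deposited but not after quantile normalization. Their calls were lost in 5, 4 and 5 of the 6 fits that left out 1 array.

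Other lists held 1 or 2 calls each, where 9.37% of all protein-coding genes were called. The heat shock co-chaperone DNAJB1 read 7.03, 6.50 and 7.01 against 8.21, 8.23 and 8.12, a change of 1.34 (SE 0.20, adjusted p = 0.00222), as the 1 call of 15 heat shock and proteasome genes. Against the CYTOR and LINC00158 scrambled arrays, however, DNAJB1 was at -1.03 and -0.20. VEGFA, the angiogenic factor, rose by 1.03 (adjusted p = 0.00547), and of the 19 glycolysis and hypoxia genes the phosphofructokinase PFKP rose too (0.54, adjusted p = 0.0485), though it was at -0.90 and -0.88 against the CYTOR and LINC00158 scrambled arrays. Glutathione reductase GSR rose by 1.19 (adjusted p = 0.00962), while thioredoxin TXN, near the ceiling, was at -0.44 (adjusted p = 0.0456, but 0.0716 after quantile normalization). NCL, the nucleolar protein nucleolin that also binds oligonucleotides, read 10.93, 10.66 and 10.82 against 9.60, 9.64 and 9.83, a change of -1.11 (adjusted p = 0.00738), and shares its list with XRCC6. The ribosomal protein gene RPL5 changed by -1.10 (adjusted p = 0.00663) as the only call of 16 such genes, from a scrambled mean of 6.69, the lowest of them. Of the others, RPL7, RPL27, RPS6 and RPS12 averaged the ceiling of 19.93 in both groups, so a change there was not measured. The ATP synthase subunit gene ATP5MC1 changed by -0.85 (adjusted p = 0.0102), while the complex I subunit gene NDUFV1 rose by 0.57 (adjusted p = 0.0331). The gamma-tubulin gene TUBG1 fell by 1.00 on the log2 scale (adjusted p = 0.00635) and the beta-tubulin gene TUBB6 rose by 0.65 (adjusted p = 0.0351). The calls of PFKP and TXN were lost in all 6 fits that left out 1 array, that of NDUFV1 in 5 and that of TUBB6 in 4.

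The remaining lists held few calls, to be read beside the 9.37% called of all protein-coding genes. In the unfolded protein response 2 of 21 genes fell, ATF6 (-1.04) and HYOU1 (-0.74), of 16 p53 targets MDM2 fell (-1.16, adjusted p = 0.0464), and of 13 cholesterol genes LSS fell (-0.75) while MVD rose (0.68, but -0.05 against the CYTOR scrambled arrays). After quantile normalization HYOU1 (adjusted p = 0.155) and LSS (adjusted p = 0.0542) were not called. The call of MVD was lost in all 6 fits that left out 1 array, that of LSS in 5, and those of ATF6, HYOU1 and MDM2 in 4 each. No gene of 18 in lysosome and autophagy was called, where CTSS was at -0.83 (adjusted p = 0.23). Among markers of other cells, 1 of 9 T and NK cell genes (PRF1, which fell by 1.00), 2 of 7 myeloid genes (FCN1, -1.39, and CD163, 1.00), 0 of 6 erythroid and platelet genes and 2 of 9 stromal and epithelial genes (KRT19, -0.90, and VWF, 0.65) were called. Those 5 called markers read between 3.67 and 6.09 on these arrays. The calls of FCN1 and KRT19 held in each of the 6 fits that left out 1 array. Those of PRF1, CD163 and VWF were lost in 5, 4 and 4. The part of such markers in the other results was not tested.

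**Figure D3:**
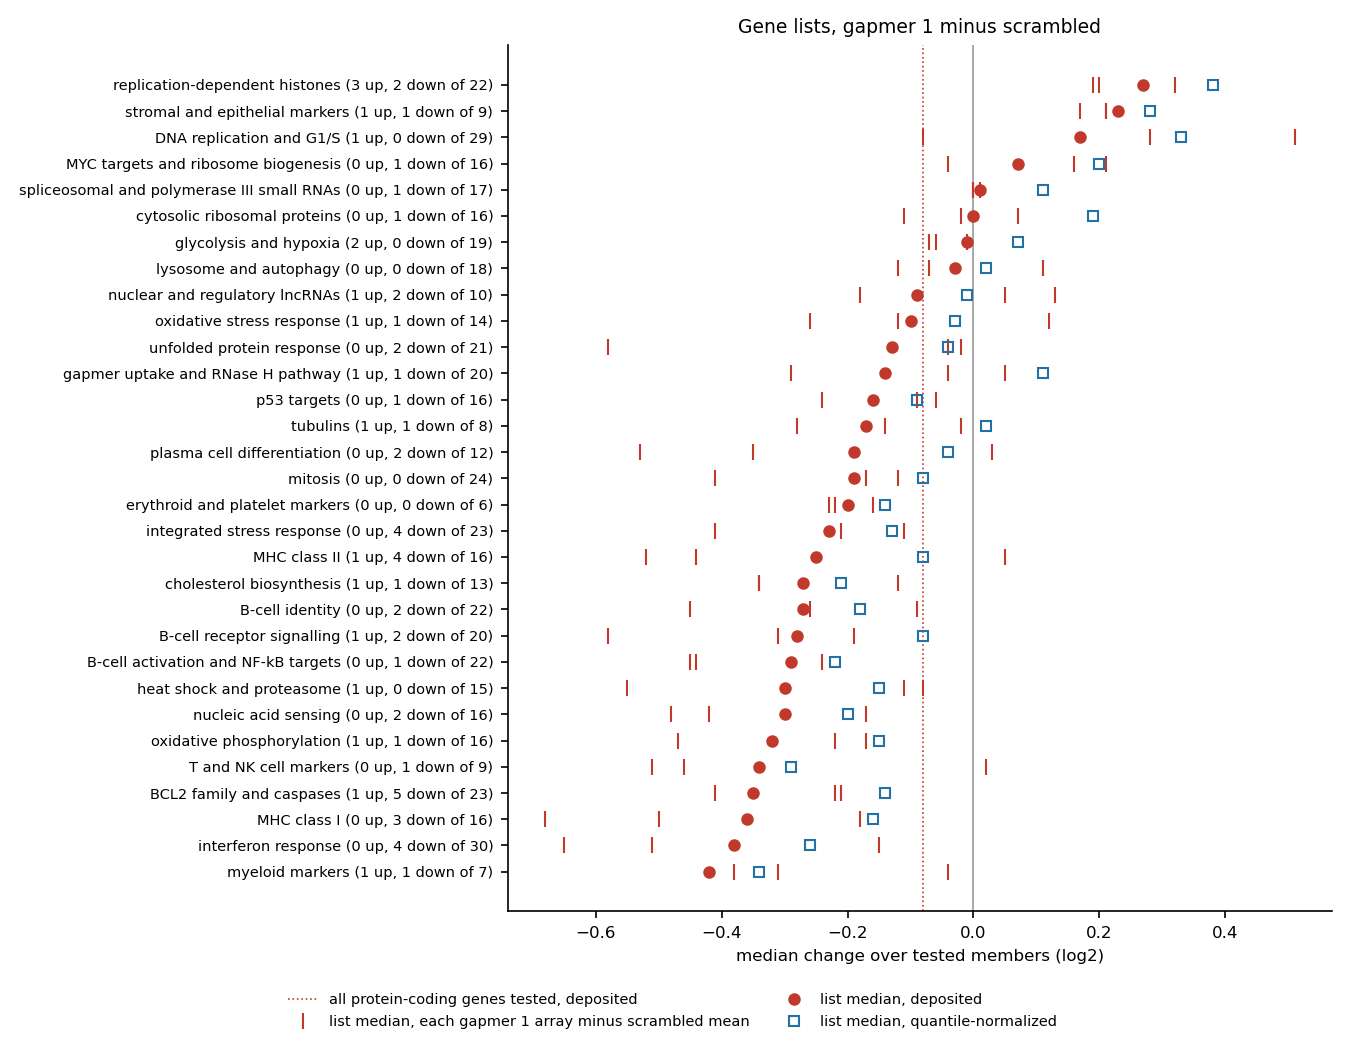
Median change over the tested members of each gene list (horizontal axis, log2), as deposited (filled points), for each gapmer 1 array minus the scrambled mean (ticks) and after quantile normalization (open squares), with the counts of called members beside each name. The deposited medians run from -0.42 for myeloid markers to 0.27 for replication-dependent histones, the dotted line marks -0.08 for all protein-coding genes, and the open squares lie to the right of the filled points.

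Calls among non-coding genes also went both ways. Over all units 13.3% were called, over units without a single symbol 14.3% and over protein-coding genes 9.37%. Over all named genes, counted as below with 1 unit a gene, 11.4% were called. Of 1083 long non-coding RNA genes 14.3% were called (72 higher, 83 lower). Of 769 microRNA genes 14.4% were called (54 higher, 57 lower), and of 1336 pseudogenes 13.8% (84 higher, 101 lower), somewhat above the 11.4% of all named genes. Copies of 7SL RNA, the RNA of the signal recognition particle, were called in 21.6% of 541 (58 higher, 59 lower). After quantile normalization 69 were higher and 41 lower. Of 170 copies of 7SK, which holds the elongation factor P-TEFb inactive, 21 were higher and 19 lower (25 and 17 after quantile normalization). Of 294 copies of 5S ribosomal RNA 19.4% were called (22 higher, 35 lower), and after quantile normalization 24 were higher and 25 lower. Among the 5S copies that fell, RNA5S11 to RNA5S16 all had the same change, -0.72 (adjusted p = 0.0491). These may not be separate measurements, and none was called after quantile normalization (adjusted p = 0.0549). Copies of U6, the catalytic small nuclear RNA of the spliceosome, were called in 11.5% of 750, near the 11.4% of all named genes. More of them fell than rose, 62 against 24 as deposited and 54 against 37 after quantile normalization. In each of these families some copies that rose had scrambled means below the filter, and some that fell had gapmer 1 means below it. The copies within each of these families are close in sequence and their signals cannot be assigned to single loci. RN7SK, RN7SL1 and RN7SL2 themselves averaged 19.93, the array's ceiling, in both groups, so a change there was not measured.

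The greatest fall of any named gene was in a 7SK copy, RN7SKP204. It read 15.85, 15.62 and 15.77 with scrambled gapmer and 12.57, 12.26 and 12.27 with gapmer 1, a change of -3.38 (SE 0.18, adjusted p = 8.15e-06). RN7SKP203 changed by -2.74 and RN7SKP85 by -2.44, while RN7SKP273 changed by 2.26 from a scrambled mean of 3.52, below the filter. RN7SKP255, named after its values were seen, went from 9.06 to 10.84 (change 1.78, adjusted p = 0.00134). Units with RN7SKP symbols, not RN7SK itself, thus differed in opposite directions on the same arrays, as deposited and after quantile normalization. The 7SL copies did so as well: RN7SL81P rose from 5.31, 5.56 and 5.31 to 8.16, 8.10 and 8.05 (change 2.71, adjusted p = 1.7e-05), RN7SL395P rose by 2.50, and RN7SL811P went from 15.45 on each scrambled array to 13.10 on each gapmer 1 array (change -2.35). The U6 copies RNU6-1252P and RNU6-271P changed by -2.29 and -2.26, and the pseudogenes BTF3P2 and RPL36AP13 by 2.38 and 2.10. All 12 non-coding genes picked by the naming rule, MIR4740 included, lay outside the range of the 9 scrambled arrays, as did 17.7% of all named genes, but the rule had used 3 of these 9 arrays and nothing is read from this.

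Among microRNA genes, MIR4740, MIR1185-1 and MIR6892 rose most and MIR647, MIR365A and MIR6881 fell most. Apart from MIR4740 they were chosen after their values were seen. The array units were named by gene, so a value may reflect the precursor or either arm. The mature sequences from RefSeq (GRCh38.p14) are printed 5′ to 3′ to show which seeds the changed genes carry, with the seed, bases 2 to 8, in capitals. No seed is shared between any of them. The first 5 lines belong to genes that rose and the others to genes that fell.
hsa-miR-4740-3p: gCCCGAGAggauccgucccugc
hsa-miR-4740-5p: aGGACUGAuccucucgggcagg
hsa-miR-1185-5p: aGAGGAUAcccuuuguauguu
hsa-miR-1185-1-3p: aUAUACAGggggagacucuuau
hsa-miR-6892-3p: uCCCUCUCccaccccuugcag
hsa-miR-647: gUGGCUGCacucacuuccuuc
hsa-miR-365a-5p: aGGGACUUuugggggcagaugug
hsa-miR-365a-3p: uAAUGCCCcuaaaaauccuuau
hsa-miR-6881-3p: aUCCUCUUucguccuucccacu
hsa-miR-6881-5p: uGGGGUAAggauaggaggguca
In GRCh38.p14, the miR-4740 arms lie at chr17:81400716-81400737 and chr17:81400753-81400774 on the minus strand, the miR-1185-1 arms at chr14:101042991-101043011 and chr14:101043029-101043050 on the plus strand, and miR-6892-3p at chr7:143382780-143382800 on the plus strand. Of the others, miR-647 lies at chr20:63942691-63942711 on the minus strand, the miR-365a arms at chr16:14309300-14309322 and chr16:14309340-14309361 on the plus strand, and the miR-6881 arms at chr15:74411361-74411382 and chr15:74411406-74411427 on the minus strand.

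MIR4740 read 11.64, 12.48 and 12.46 with scrambled gapmer and 13.96, 14.16 and 14.49 with gapmer 1, a change of 2.01 (SE 0.26, adjusted p = 0.0012). Its scrambled level depended on the experiment, averaging 12.19 here but 7.08 with the CYTOR and 5.79 with the LINC00158 scrambled gapmer. The change against those arrays was therefore 7.12 and 8.41. MIR1185-1, of the large microRNA cluster on chromosome 14, went from 6.29, 5.92 and 5.47 to 7.87, 7.88 and 7.90 (change 1.99, SE 0.22, adjusted p = 0.000578). MIR6892 went from 5.85, 5.62 and 5.22 to 6.94, 7.33 and 8.04 (change 1.87, SE 0.39, adjusted p = 0.0114), with the third gapmer 1 array highest.

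MIR647 fell from 6.91, 6.72 and 7.76 to 5.07, 4.96 and 4.95, a change of -2.14 (SE 0.24, adjusted p = 0.000565), and stayed below all 9 scrambled arrays. The other falls were smaller or absent against other scrambled arrays. MIR365A, at 5.95, 6.47 and 5.90 against 4.49, 4.25 and 4.56 (change -1.67, adjusted p = 0.00114), differed by -0.68 from the CYTOR and -0.65 from the LINC00158 scrambled arrays, with adjusted p of 0.259 and 0.256. MIR6881, at 5.35, 5.43 and 5.71 against 3.99, 3.92 and 3.88 (change -1.57, adjusted p = 0.00142), was at 0.07 (adjusted p = 0.859) against the CYTOR and -0.67 (adjusted p = 0.0391) against the LINC00158 scrambled arrays.

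Long non-coding RNAs of known nuclear or regulatory roles were also read, including the target of another experiment. LINC00158 read 7.46, 6.38 and 6.57 with scrambled gapmer and 5.40, 5.61 and 5.95 with RP11-161H23.5 gapmer 1. The change was -1.15 (SE 0.29, adjusted p = 0.0252), a call lost in 3 of the 6 fits with an array left out. KCNQ1OT1, an imprinted antisense transcript, changed by -0.88 (adjusted p = 0.0489, but 0.053 after quantile normalization), and EPB41L4A-AS1 by 0.58 (adjusted p = 0.03). Their calls were lost in 5 and 4 of those fits. The other 7 of the 10 tested were not called.

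The direction of the calls depended on brightness. In the deposited values the median change was -0.03 for units with a mean between 3.96 and 5 and -0.32 between 14 and 16. Among called units with a mean between 12 and 14, 27 were higher and 147 lower. After quantile normalization of the 12 arrays the median of all units moved from -0.03 to 0.03, the median change between 14 and 16 became 0.01, and the called units between 12 and 14 became 58 higher and 79 lower. Over all units quantile normalization gave 8970 calls (13.2%), 5062 higher (7.46%) and 3908 lower (5.76%). The share of calls that were higher was thus 46.6% as deposited and 56.4% after quantile normalization. Of the deposited calls, 4181 of the 4204 higher and 3884 of the 4824 lower were called again the same way, and none was called in the opposite direction.

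**Figure D4:**
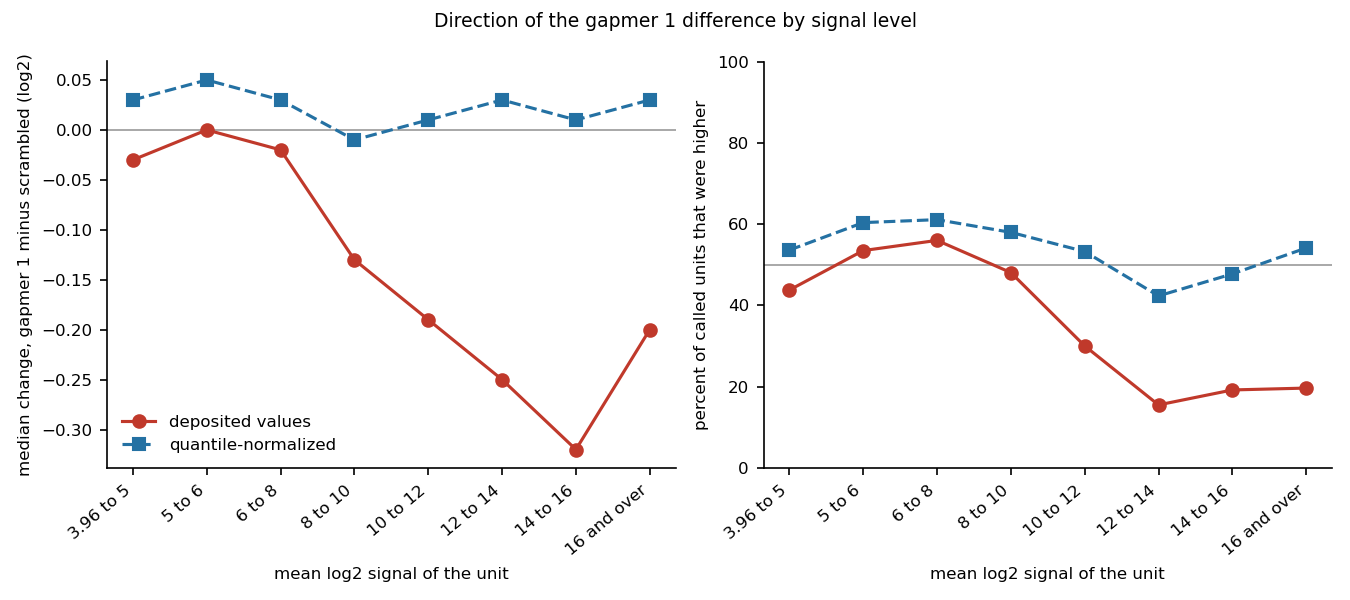
Median change of gapmer 1 minus scrambled (left, log2) and percent of called units that were higher (right), by mean log2 signal of the unit, for the deposited and the quantile-normalized values. The deposited median falls from -0.03 in the dimmest bin to -0.32 between 14 and 16, where the quantile-normalized median is 0.01.

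Whether scrambled and treated arrays were summarised together is not given in the sources used here, and exact agreement of values bears on it. Among 7479 units with a mean of at least 8 and below the ceiling, pairs of scrambled arrays shared the same value in 4.43% to 5.01% of units, and pairs of gapmer 1 arrays in 4.53% to 5.32%. Pairs of a scrambled and a gapmer 1 array did so in 0.455% to 0.722%. Gapmer 1 arrays shared values with gapmer 2 or gapmer 1+2 arrays in 3.73% to 6.16% of units, and the scrambled arrays shared values with those of the other experiments in 3.58% to 5.15%. Exact agreement was therefore common among scrambled arrays of all experiments and among treated arrays of the experiment, and rare between the sets. A difference between these sets cannot be told apart from an effect of gapmer 1 in the comparison with scrambled arrays, while gapmer 1 against gapmer 2 lies within 1 set.

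Units with 1 repeated value can have a spread near 0. Below the ceiling, 256 units had the same value on all 3 scrambled arrays and 285 on all 3 gapmer 1 arrays. Of the 9028 called units 159 (1.76%) had 1 value on all 3 arrays of a group, PCBP1, RN7SL811P and CR2 among them. At the ceiling of 19.93 were 219 units on at least 1 of the 6 arrays and 183 on all 6, and a change there is not measured.

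The other scrambled arrays gave a further reading of the controls. In a fit of all 36 arrays, gapmer 1 differed from its own scrambled arrays in 9144 units (13.5%), from the CYTOR scrambled arrays in 18577 (27.4%) and from the LINC00158 scrambled arrays in 23156 (34.1%). The scrambled arrays of the RP11-161H23.5 experiment themselves differed from those of CYTOR in 2003 units (2.95%) and from those of LINC00158 in 5222 (7.69%), while the CYTOR and LINC00158 scrambled arrays differed in 42 (0.0619%). Of the 9028 calls, 6005 (66.5%) were made the same way against each of the 3 scrambled groups, 2788 higher and 3217 lower. For 6614 called units (73.3%) the gapmer 1 arrays lay outside the range of all 9 scrambled arrays, as they did for 18.8% of all units tested. The calls rest on 3 of those 9 arrays, so the shares are not independent of them.

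**Figure D5:**
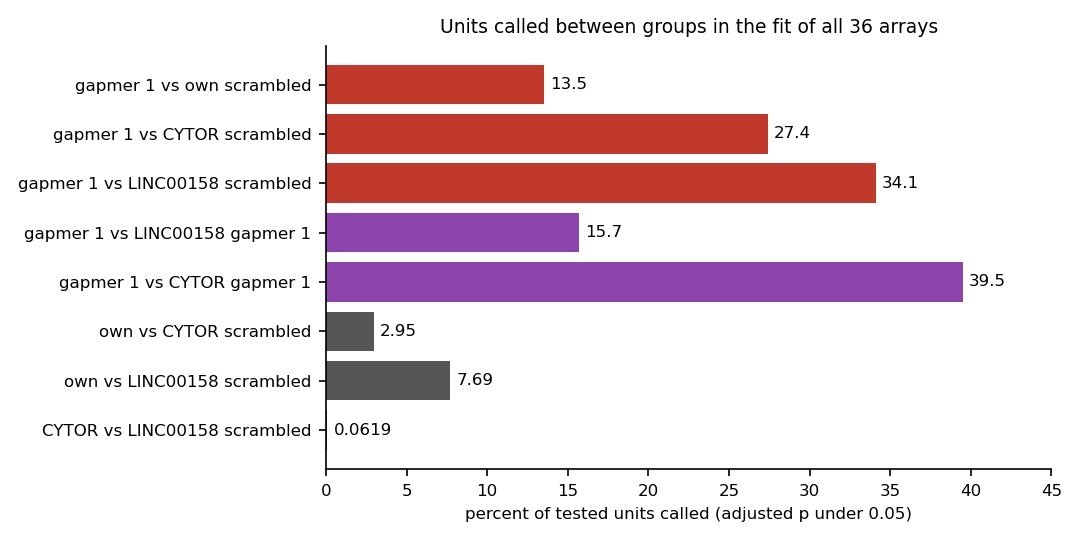
Percent of tested units called (horizontal axis, from 0) in the fit of all 36 arrays, for RP11-161H23.5 gapmer 1 against each scrambled group (red), against gapmer 1 of the other experiments (purple), and between scrambled groups (grey). The red bars run from 13.5% against the arrays of its own experiment to 34.1% against LINC00158 scrambled, and the bar between CYTOR and LINC00158 scrambled arrays is 0.0619%.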

How the data were processed

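The authors deposited log2 signals made with RMA (Affymetrix Expression Console), according to the submitters' processing notes. Neither versions nor a genome build, nor which arrays were summarised jointly, is given in the sources used here. Values from 1.96 to a ceiling of 19.93 showed the log2 scale. An array gives no read depth, and the number of arrays limits the precision.

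Of 135750 units, 36176 had 1 gene symbol in the platform annotation, 1119 several and 98455 none. Those with several or none stayed in the tests without being named, and the brightest unit of a symbol was named. RefSeq (GRCh38.p14) gave gene classes and sequences.

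A model with 4 group means was fitted to the 12 arrays of the experiment with limma 3.58.1 (R 4.3.3), with no covariate, 8 residual and 3.44 prior degrees of freedom, after checks on simulated data. Contrasts used Benjamini-Hochberg adjusted, two-sided p-values. With 3 arrays against 3 an exact permutation test cannot go below 0.1, so none is given. The target unit, planned as a result, could not be named and was not tested.

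Named genes were the 12 greatest rises and falls among protein-coding genes, and 6 each among other classes, called the same way after quantile normalization, without overlap between the groups or an array at the ceiling, and up to 4 called members per list (the 2 largest changes where none was called). Genes, lists and comparisons were chosen with earlier results of these data known. Alternatives were other filters, normalizations, spread estimates, array sets, controls and each array left out.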

Additional observations from a re-analysis of the deposited data

How the results depend on the processing

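The count of 9028 calls between gapmer 1 and scrambled was between 7805 and 11050 without a filter, after quantile normalization or a shift to a common median, with trend and robust eBayes, with all 36 arrays, or with the replicate number as a block (7805). It was 5376 with the filter at the 75th percentile, where fewer units were tested, 6340 with only the 6 arrays, 4939 (without gapmer 1 replicate 3) to 5758 (without scrambled replicate 2) with 1 array left out, where fewer arrays were fitted, 18577 against the CYTOR scrambled arrays and 23156 against the LINC00158 scrambled arrays; the cause of the last pair was not tested. Same-numbered scrambled and gapmer 1 arrays had deviations that correlated at 0.0905, 0.00183 and 0.0705, so the numbers were not taken to pair arrays. A shift to a common median made 54.8% of calls higher. Gapmer 1 against gapmer 2 gave 0 calls, or 0 to 1 with an array left out (1 without gapmer 1 replicate 2), and gapmer 1 against gapmer 1+2 gave 0 calls, 1 with all 36 arrays, and 0 to 20 with an array left out (20 without gapmer 1+2 replicate 1). Over the named genes and all alternatives, the direction and call were kept in 1344 cases, the call was lost in 317 and gained in 14, and the direction changed in 9. Against the CYTOR scrambled arrays the changes with opposite sign were RFXANK -0.27, MVD -0.05, PFKP -0.90, DNAJB1 -1.03 and MIR6881 0.07. Against the LINC00158 scrambled arrays they were BCL2 -0.04, RFXANK -0.27, PFKP -0.88 and DNAJB1 -0.20, and the cause was not tested. The fit of the target unit was not run, since no unit could be named for it. Signals near the ceiling of 19.93 and dim units near the filter limit what a change can show.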

Other observations

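MYEOV and ANO1, which both rose, lie on chromosome 11 with other genes between them. Of those, CCND1, the cyclin D1 gene, was at 4.60 with scrambled gapmer and 4.06 with gapmer 1 (change -0.54, SE 0.31, adjusted p = 0.271 in limma). LTO1 was at -0.47 (adjusted p = 0.476), and beyond ANO1 the adaptor gene FADD was at -0.09 (adjusted p = 0.785). FGF3, FGF4 and FGF19 were not tested. No other protein-coding gene tested along the stretch from LRP5 to PPFIA1, which holds both, was called. Of the protein-coding genes tested from CIMIP4 to APOBEC3A around SOX10 on chromosome 22, only TOMM22, a subunit of the mitochondrial import complex, was called besides SOX10 itself, from 5.71 to 6.88 (change 1.17, SE 0.15, adjusted p = 0.00122). The genes nearest to SOX10 with a test, PICK1 and SLC16A8, were at -0.41 (adjusted p = 0.154) and 0.32 (adjusted p = 0.269).

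Most immunoglobulin variable segments were not called. Of 56 heavy-chain segments 6 rose and 2 fell (7 and 1 after quantile normalization), which is 14.3% called, against 11.4% of all named genes. Of 36 kappa segments 1 rose and 3 fell (11.1% called, and 3 and 2 after quantile normalization), and of 13 lambda segments 1 fell (7.69%). Changes of the heavy-chain segments that rose ran from 0.73 to 1.57. IGHVII-30-1 went from 5.84 to 7.23 (change 1.39, SE 0.21, adjusted p = 0.00255) and IGHV3-37 from 6.15 to 7.38 (change 1.23, SE 0.17, adjusted p = 0.00149), while IGHVII-1-1 fell from 5.87 to 4.47 (change -1.40, SE 0.21, adjusted p = 0.00266). These segments were picked after their values were seen, and probes may not separate near-identical segments.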
